A study of Mus musculus with 24 samples.

Results

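Among the DNA windows whose 5-methylcytosine (5mC) signal was listed as changed in Tet2-KO mouse embryonic stem (mES) cells, 322 windows of 100 bp had no read at all in any Tet2-KO library. They were chosen by these measured counts. A member is a window of the list for Tet2 KO against WT, both with control siRNA (siNC), that lay on any of 16 chromosomes (2 to 11, 13, 14 and 16 to 19) and had 0 reads in all 3 Tet2-KO siNC libraries. There were 322 such windows among 8026 listed windows on these chromosomes (4.01%), of which 6103 were lower in Tet2 KO, and among 14279 windows of the whole list. Because the rule used the Tet2-KO counts, the difference between Tet2 KO and WT at these windows is a description and carries no test.

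The 5mC signal was measured by methylated DNA immunoprecipitation and sequencing (MeDIP-seq), in which an antibody pulls down methylated fragments. The series held 24 samples in 8 groups of 3, and the groups used here were WT siNC, Tet2-KO siNC, and the immunoprecipitated (IP) and input samples of WT and Pspc1-KO cells without siRNA. Lists of WT and Tet2-KO cells with siRNA against Nsun2 (siNsun2), an RNA m5C methyltransferase, were used only to look for members. All were mES cells, and the WT and Tet2-/- cells came to the study from another laboratory, were kept in serum with LIF and the inhibitors CHIR99021 and PD0325901, and were freed of feeder cells before use. The labels do not say how many clones each genotype stands for. None of the 24 samples was an input library of WT siNC or Tet2-KO siNC cells. At these windows a loss of 5mC and a loss of the DNA itself therefore cannot be told apart.

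DNA methylation in mammals sits mostly on CpG sites, where it is copied at each cell division and keeps transposons and selected promoters silent. TET2 oxidizes 5mC and thereby starts its removal. Imprinted genes are a special case, because their control regions carry 5mC on the allele from a single parent, which survives the erasure that follows fertilization and is read by proteins such as ZFP57. Tandem arrays, in which a short unit is repeated head to tail, and transposon copies are also methylated in most cells.

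The sequences below are the reference windows that carry the results, on the plus strand of GRCm38 (mm10), with CpG sites in capitals. The first is the member of the targeted gene with the highest WT level.
Tet2 coding exon, chr3:133487501-133487600: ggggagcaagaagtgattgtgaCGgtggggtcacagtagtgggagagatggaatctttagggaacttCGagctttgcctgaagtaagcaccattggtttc

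The next windows come from imprinted loci and show the unique, unmasked sequence that is typical of these members. They are from 6 of the 7 loci, and at each the window with the highest WT level that overlapped no untranslated region was taken.
Peg3, chr7:6729601-6729700: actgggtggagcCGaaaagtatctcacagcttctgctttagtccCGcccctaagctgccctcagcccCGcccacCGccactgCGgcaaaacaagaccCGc
Peg10, chr6:4748201-4748300: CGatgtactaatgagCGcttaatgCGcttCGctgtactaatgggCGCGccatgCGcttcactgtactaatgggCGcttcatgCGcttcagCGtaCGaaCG
Nap1l5, chr6:58906801-58906900: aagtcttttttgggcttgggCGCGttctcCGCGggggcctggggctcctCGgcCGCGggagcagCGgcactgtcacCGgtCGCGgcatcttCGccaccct
Grb10, chr11:12026501-12026600: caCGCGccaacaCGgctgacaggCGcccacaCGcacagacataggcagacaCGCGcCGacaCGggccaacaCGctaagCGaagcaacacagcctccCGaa
Zrsr1, chr11:22973801-22973900: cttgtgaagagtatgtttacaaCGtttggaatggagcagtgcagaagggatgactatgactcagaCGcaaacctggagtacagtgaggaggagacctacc
Blcap exon beside Nnat, chr2:157559801-157559900: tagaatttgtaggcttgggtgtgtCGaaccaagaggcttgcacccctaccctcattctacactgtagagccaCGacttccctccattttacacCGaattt

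The third set shows large runs of members outside imprinted loci, in which a unit of 16 to 41 bases recurs.
D5Ertd605e, chr5:147421201-147421300: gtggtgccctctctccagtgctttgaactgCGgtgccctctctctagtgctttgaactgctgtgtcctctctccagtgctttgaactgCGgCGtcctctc
intergenic, chr14:54692401-54692500: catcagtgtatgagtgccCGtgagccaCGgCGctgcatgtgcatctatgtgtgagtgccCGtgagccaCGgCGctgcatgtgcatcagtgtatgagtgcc
Ss18l1, chr2:180065601-180065700: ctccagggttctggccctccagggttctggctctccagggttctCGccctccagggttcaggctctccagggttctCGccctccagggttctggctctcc
Ripply3, chr16:94334001-94334100: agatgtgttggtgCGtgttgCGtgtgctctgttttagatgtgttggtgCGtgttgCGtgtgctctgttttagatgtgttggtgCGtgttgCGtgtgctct

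The last set shows masked or multi-copy members, namely the window with the highest WT level of all, the leading window of a run whose nearest gene start is that of Sorl1, and the leading windows of groups of runs whose sequences align to each other.
proximal chromosome 10, chr10:3113801-3113900: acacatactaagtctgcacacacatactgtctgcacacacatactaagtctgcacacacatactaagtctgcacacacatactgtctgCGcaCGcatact
intergenic run of 5, chr9:41911701-41911800: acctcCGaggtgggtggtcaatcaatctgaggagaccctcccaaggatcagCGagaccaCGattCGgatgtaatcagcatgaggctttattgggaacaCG
group of 13 runs, chr17:54395601-54395700: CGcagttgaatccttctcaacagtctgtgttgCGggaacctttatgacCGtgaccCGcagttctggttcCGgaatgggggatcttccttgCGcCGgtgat
second group of 13 runs, chr6:105200801-105200900: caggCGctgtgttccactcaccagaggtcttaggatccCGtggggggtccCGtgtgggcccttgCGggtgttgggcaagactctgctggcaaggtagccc
group of 7 runs, chr6:20120001-20120100: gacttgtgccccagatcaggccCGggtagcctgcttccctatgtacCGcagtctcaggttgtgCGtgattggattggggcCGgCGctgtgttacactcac
group of 4 runs, chr14:45865201-45865300: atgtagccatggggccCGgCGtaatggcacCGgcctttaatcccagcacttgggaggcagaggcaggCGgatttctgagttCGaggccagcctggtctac

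Depth sets what a count of 0 can show. The WT siNC libraries held 11.5 to 15.4 M reads, and the Tet2-KO siNC libraries held 8.92 to 14.2 M reads. A limit of 3 reads, which a count of 0 allows, was worth 3.36, 2.13 and 2.12 RPKM (reads scaled to window length and to library size) in Tet2-KO replicates 1, 2 and 3. The members were thus not detected at this depth, and their label of absence holds only down to that limit, which covers counting error alone. Replicates 2 and 3 differed by less than sampling noise in both groups (chi-square per degree of freedom 0.953 in WT and 0.958 in Tet2 KO), whereas replicates 1 and 2 differed by more (1.35 and 1.44), so replicates 2 and 3 were counted as 1 sample and means carry n = 2. The study describes its genome-wide data as coming from biological replicates, but the labels do not state whether these replicates were separate cultures, so the p-values given here measure the spread between these libraries, which may be technical.

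The WT reads at the members were bounded by the selection as well, since a window with 0 Tet2-KO reads could be listed only if it had reads in WT. Every WT library had more than 3 reads at all 322 windows, with 5 to 202 reads per window and library. Summed over the 3 WT libraries the lowest member had 28 reads, the median was 46 and the highest was 555. The median level was 11.5 RPKM, and the range was 6.71 to 140 RPKM. Over all members the WT libraries held 6063, 6798 and 7895 reads in replicates 1, 2 and 3, against 0 in each Tet2-KO library. No WT library overlapped any Tet2-KO library, with the Tet2-KO side fixed at 0 by the rule and the WT side bounded by the listing. Against the limit of 3 reads per library, the weakest member was at least 2.44-fold lower and the strongest at least 51.1-fold lower, with a median bound of 4.19. The bound was above 10 at 28 windows. The relative methylation score, in which CpG density is corrected for, had a WT median of 0.409 at the members (range 0.258 to 0.710) and 0.440 at the 5300 lower windows with more than 3 Tet2-KO reads.

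WT read counts were similar on both sides of the edge of the rule. At the inner edge 7 members had the minimum of 28 WT reads, such as chr2:156026101-156026200 in the ferlin family gene Fer1l4 with 7, 10 and 11 reads in WT replicates 1, 2 and 3. At the outer edge 161 windows had 1 Tet2-KO read in all, and they had 32 to 580 WT reads with a median of 48. That read fell in replicate 1 at 31 windows, in replicate 2 at 67 and in replicate 3 at 63. The strongest of these, chr10:3109901-3110000, had 149, 183 and 248 WT reads and 1, 0 and 0 Tet2-KO reads, and lay among members.

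Tet2, the targeted gene, was itself among the members. All 5 listed windows of Tet2, at chr3:133487401-133487900 within a coding exon of this minus-strand gene, were members. The WT libraries had 62, 83 and 78 reads over the 5 windows, and the 3 Tet2-KO libraries had 0. The mean level was 10.8, 12.5 and 10.2 RPKM in the WT replicates, or 11.04 ± 0.402 RPKM (SD, n = 2), and the windows were at least 2.72 to 5.00-fold lower. No listed window adjoined this run, and it held 11 CpG sites, compared with 41 to 59 at the 5 imprinted loci with at least 6 members. The exons removed by the knockout allele are not given in the sources used here, so deletion of this sequence and loss of its 5mC cannot be told apart.

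**Figure D1:**
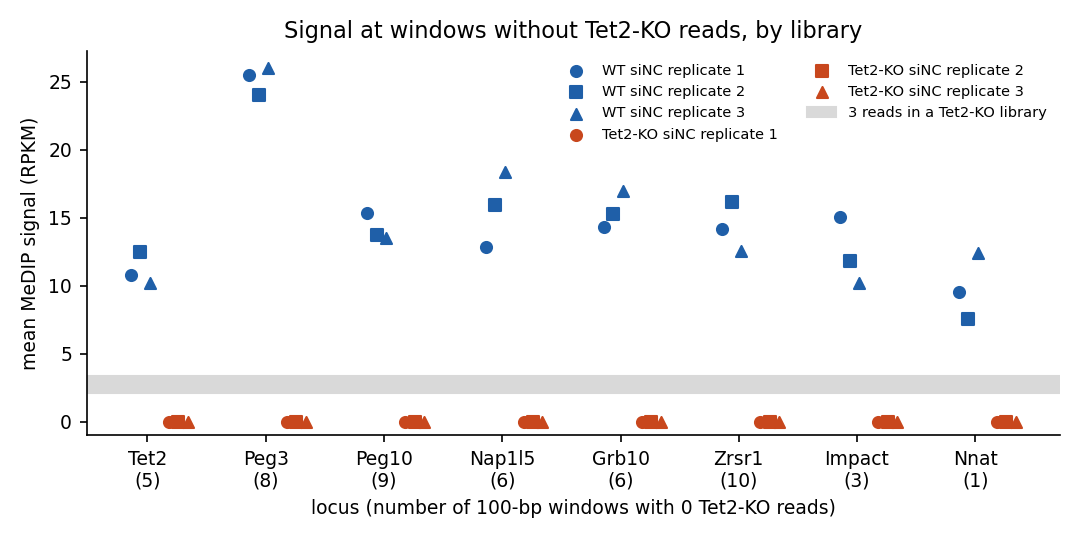
Mean MeDIP signal in RPKM (y axis) over the windows with 0 Tet2-KO reads at Tet2 and 7 imprinted loci (x axis, number of windows in brackets), with a point for each WT siNC and Tet2-KO siNC library. All WT points lie between 7.53 and 25.97 RPKM, above the grey band that marks 3 reads in a Tet2-KO library, and all Tet2-KO points are at 0.

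Imprinted genes formed the clearest gene group. Of 45 imprinted genes in the list, 37 lay on these chromosomes, and 43 members (13.4%) lay in or within 5 kb of 10 of them. These members fell at 7 loci, namely Peg3, Peg10, Nap1l5, Grb10, Zrsr1, Impact and Nnat, in 11 of the 161 runs of adjoining members (6.83%). For comparison, 45 of 481 lower windows with 1 to 3 Tet2-KO reads (9.36%) lay at imprinted genes. The count was 88 of 5300 lower windows with more than 3 reads (1.66%) and 0 of 1923 higher windows. Windows of a run share sequenced fragments, so these counts are not independent. Of the 2164 stretches of adjoining lower windows, 23 (1.06%) lay at imprinted genes. As background, the control regions of all 7 loci are known to be methylated on the maternal allele.

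Peg3, a zinc finger gene expressed from the paternal allele, had the highest level among them. Its 8 members lay in 2 runs between chr7:6729401-6730500, from -19 to 969 bp of a Peg3 transcription start. At the leading window, chr7:6730301-6730400, the WT libraries had 54, 40 and 46 reads, or 38.4 ± 11.9 RPKM (SD, n = 2), and the Tet2-KO libraries had 0, at least 14.01-fold lower. Over all 8 windows the mean was 25.5, 23.99 and 25.97 RPKM in the WT replicates. The 17 listed windows of this locus spanned 1700 bp, and the 9 others had 1 to 8 Tet2-KO reads.

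Peg10, a gene derived from a retrotransposon and needed in the placenta, held 9 members in 2 runs between chr6:4748201-4749400. They lay 844 to 1944 bp downstream of a Peg10 transcription start. The leading window had 32, 24 and 19 WT reads, or 21.5 ± 8.87 RPKM (SD, n = 2), and was at least 7.83-fold lower in Tet2 KO. The 26 listed windows formed a single unbroken run of 2600 bp in which the highest Tet2-KO count was 6 reads. The repeated unit at its leading window can be seen in the sequence above, with 12 CpG sites in 100 bases.

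On the same chromosome, Nap1l5, an intronless nucleosome assembly gene inside Herc3, held 6 members in 1 run at chr6:58906801-58907400. The leading window had 18, 29 and 35 WT reads, or 18.96 ± 4.74 RPKM (SD, n = 2). The run crossed the Nap1l5 start. Its 4 neighbours in the list had 1 or 2 Tet2-KO reads, and Tet2-KO reads over all 10 windows, each library divided by its total, were 0.897% of the WT value. This was the lowest share of any imprinted locus listed.

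Grb10 and Zrsr1 represented chromosome 11. Grb10, an adaptor of growth factor receptors, held 6 members between chr11:12025401-12026600, and its leading window had 17, 21 and 37 WT reads, or 17.4 ± 3.68 RPKM (SD, n = 2). Zrsr1, a retrogene in an intron of Commd1 that encodes a splicing factor, held 10 members in 2 runs between chr11:22971901-22974000. Its leading window had 25, 29 and 27 WT reads, or 20.7 ± 1.40 RPKM (SD, n = 2), and was at least 7.54-fold lower in Tet2 KO. Tet2-KO reads over the listed windows were 3.66% of WT at Grb10 and 1.48% at Zrsr1.

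The fewest members lay at Impact and beside Nnat. Impact, which encodes a regulator of the kinase GCN2, held 3 members on chromosome 18 between 12973201 and 12973500, with 52, 47 and 47 WT reads in all. Nnat, the imprinted gene for a small membrane protein that lies within Blcap, had 1 member within 5 kb. This window overlapped an exon of a Blcap transcript, 157 bp from its start, lay upstream of Nnat itself, and had 11, 10 and 19 WT reads, or 9.75 ± 0.293 RPKM (SD, n = 2). The 9 listed windows at Nnat had 5.57% of the WT signal in Tet2 KO.

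The 43 imprinted members shared features with the other listed windows at imprinted genes. All 43 had a single reference copy, and 0 were repeats. Their median was 6 CpG sites per window, compared with 3 over all members and 5 over all lower windows, and 281 CpG sites lay in them in all. All lay within 2 kb of a transcript start of a protein-coding gene and 36 (83.7%) within 1 kb. Over all 176 listed windows at imprinted genes, 98.9% had a single copy, 2.84% were repeats, the median was 6 CpG sites and 81.8% lay within 1 kb of a start, so these features were not particular to windows with 0 reads. The letters TGCCGC, which ZFP57 is known to bind when methylated, were searched on both strands and occurred in 8 of the 43 windows (18.6%), in 39 of the 176 listed windows at imprinted genes (22.2%), in 18 of the 274 members outside imprinted loci and Tet2 (6.57%), in 246 of 6103 lower windows (4.03%) and in 0.622% of all 100-bp tiles of these chromosomes. Among the sequences printed above they occur at Peg3 and Nap1l5. The letters contain a CpG site, whereas only 49.2% of the tiles hold any CpG site, with a median of 0 per tile. The shares were not adjusted for CpG content. A match describes the letters and not a bound site.

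**Figure D2:**
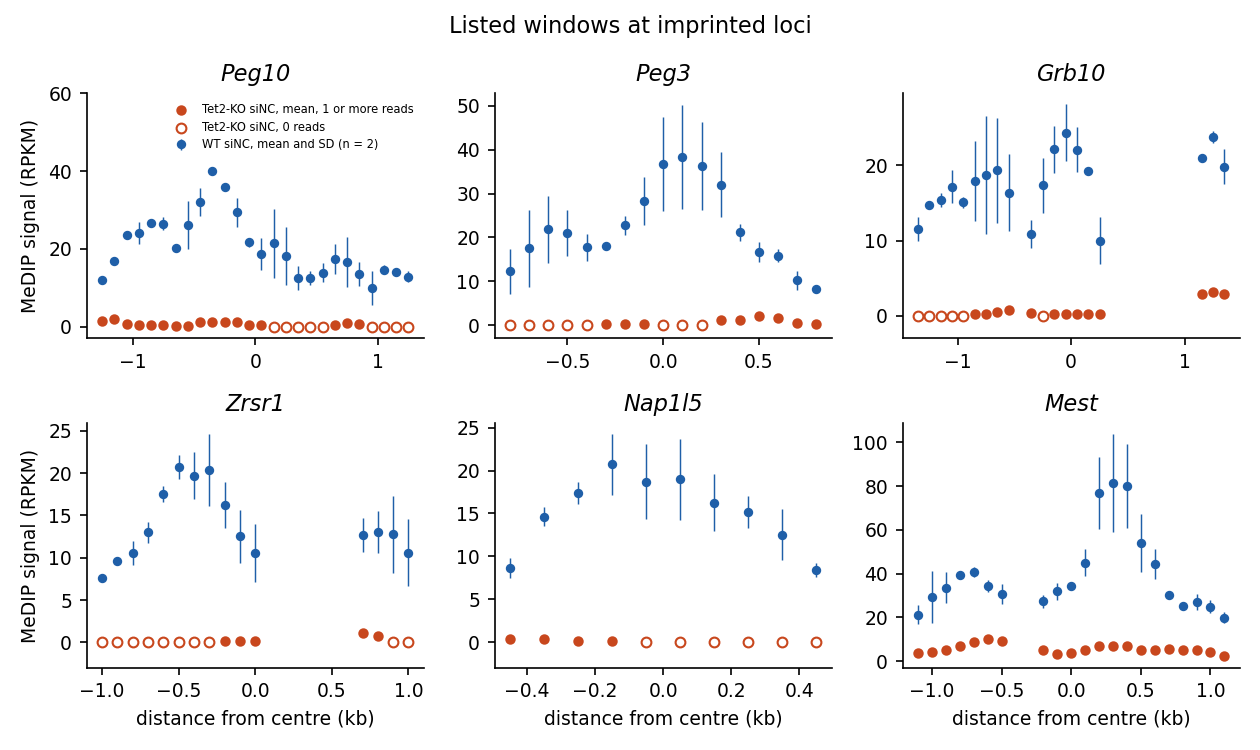
MeDIP signal in RPKM (y axis) of each listed window at 6 imprinted loci against its distance from the centre of the listed windows in kb (x axis). Blue points give the WT siNC mean with SD (n = 2), filled red points Tet2-KO siNC means with at least 1 read, and open red points windows with 0 Tet2-KO reads. Windows with 0 reads sit beside windows with a few reads at Peg10, Peg3, Grb10, Zrsr1 and Nap1l5, while Mest had none and kept 14.3% of the WT signal.

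Other imprinted genes were listed without a member. In all, 176 windows at 20 imprinted genes were listed, all of them lower in Tet2 KO, and 17 of the 37 genes had no listed window. At Inpp5f, which encodes an inositol phosphatase, 11 windows had 6.37% of the WT signal in Tet2 KO, with 12 reads at most. The share was 8.13% over 10 windows at Plagl1, a zinc finger gene, and 14.3% over 21 windows at Mest. The 23 windows shared by Gnas and Nespas had 16.1%. The share was higher at the 4 remaining loci, with 17.4% at Sfmbt2 (1 window), 19.8% at Gnas alone (5 windows), 25.8% at H13 and Mcts2 (2 windows) and 33.1% at Airn and Igf2r (1 window). The median WT count per window was 68 to 134 reads at these 8 loci and 54 to 114 reads at the 7 loci with members.

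No other fixed gene group held a member besides Tet2 itself. The lists were DNA methylation and its readers (19 genes on these chromosomes, with 5 members at Tet2), RNA m5C and TET2 partners (12 genes), PR-DUB and PRC1 (15), retrotransposon silencing (16), germline genes silenced by DNA methylation (26), pluripotency (20) and genes of the 2-cell-like state (22). Listed windows with Tet2-KO reads did occur in some of them, such as 3 windows with 1 to 3 reads at Sall4 and 15 windows with more at Duxf3. The other lower windows were 1 at Dnmt1 and, at germline genes, 1 with 1 to 3 reads and 9 with more. RNA m5C and TET2 partners and PR-DUB and PRC1 had no listed window, and retrotransposon silencing had only 6 higher windows. Members were 5.28% of all lower windows, so a lack of members among so few says little.

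The members formed 161 runs, of which 86 were single windows and 75 held 236 windows. The longest runs spanned 900 bp. At 76 of the 156 stretches of adjoining lower windows that held a member, every window was a member, which accounted for 139 members. The other 183 lay in stretches that also held windows with Tet2-KO reads. Of the 20 runs with at least 4 windows, 6 lay at imprinted genes and 8 held a tandem array, with 1 run in both.

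Tandem arrays were the second feature of the longest runs. A window was called tandem if at least 80% of its bases equalled the base 7 to 50 positions further on, and this definition was chosen after the sequences were seen. It held for 55 members (17.1%) in 19 runs, with units of 13 to 44 bases and a median of 29. The share was 5.37% of all lower windows, 4.00% of higher windows and 0.258% of all tiles. Counted by runs it was 19 of 161 (11.8%), compared with 129 of 2164 stretches of lower windows (5.96%).

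The 2 longest runs held 9 members each, all of them tandem. The first, in the long non-coding gene D5Ertd605e at chr5:147421001-147421900, repeated a unit of 29 bases. Its leading window had 40, 42 and 64 WT reads, or 35.7 ± 1.38 RPKM (SD, n = 2), and was at least 13.003-fold lower in Tet2 KO. The second, at chr14:54691601-54692500 outside genes, had a unit of 41 bases, 62 CpG sites and 17, 21 and 28 WT reads at its leading window. Within Ss18l1, which encodes a neuronal chromatin remodelling subunit, 4 runs between chr2:180065201-180067100 held 15 members, and the runs aligned to each other, and the leading window had 25, 31 and 32 WT reads. At Ripply3, a transcriptional corepressor gene, a run of 5 members with a unit of 35 bases reached 24.7 ± 9.14 RPKM (SD, n = 2), with 21, 49 and 39 WT reads. In Samd4, an RNA-binding protein gene, 6 members in 2 runs had a unit of 44 bases, with 30, 30 and 41 WT reads at the leading window.

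The highest levels of all came from a repeat at the proximal end of chromosome 10. There 13 members in 5 runs lay between chr10:3109601-3116100, and they made up 8 of the 10 members with the highest WT level. The leading window had 167, 186 and 202 WT reads, or 140 ± 6.42 RPKM (SD, n = 2), and was at least 51.1-fold lower in Tet2 KO. Its middle 32 bases had 92 exact copies in the reference, so its reads cannot be assigned to this position alone. Among single-copy members the highest levels were 54.0 ± 1.54 RPKM at chr10:3110401-3110500 and 47.2 ± 4.12 RPKM at chr10:3114001-3114100 (SD, n = 2 each), both within the same repeat. They were followed by 46.3 RPKM at chr10:3114701-3114800 and 45.7 RPKM at chr14:54292301-54292400.

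Repeats made up 159 of 322 members (49.4%), where a repeat is a window with at least 50% soft-masked bases. The share was 67.4% at lower windows with 1 to 3 Tet2-KO reads, 69.2% at those with more and 29.4% of all tiles. Several exact copies of the middle 32 bases existed for 153 members (47.5%) and for 68.3% of all lower windows. Of the 274 members outside imprinted loci and Tet2, 121 had 1 copy and 152 lay outside annotated genes. The share of CpG-dense windows was smaller than at the other lower windows. At least 5 CpG sites were present at 111 members (34.5%), at 46.2% of windows with 1 to 3 reads and at 56.9% of those with more. The sets differed in WT level too. Its median was 11.5 RPKM at members, 13.2 RPKM at windows with 1 to 3 reads and 26.8 RPKM at those with more. Whether the shares here and those of primer sites below follow the WT level was not tested.

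The study measured several retrotransposon families by PCR, and sites of those primers were located in the reference. A site lay within 5 kb of 85 members (26.4%) and of 46.7% of all lower windows. The difference depended on the distance, since within 1 kb the shares were 6.52% and 6.54%. LINE sites were near 38 members (11.8%), and near 34.9% and 37.3% of windows with 1 to 3 reads and with more. Sites of IAP, an endogenous retrovirus, were near 29 members (9.01%), compared with 8.08% of all lower windows. SINE sites were near 19 members (5.90%), compared with 3.33% of all lower and 8.16% of higher windows. MERVL and MusD sites were near 0 members and near 0.0492% and 0.459% of all lower windows.

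Alignment placed 61 of the 161 runs into 13 groups of alike sequence. A group of 13 runs with 32 windows on 8 chromosomes was 91.0% soft-masked on average, and 10 of its windows lay near an IAP site. A second group of 13 runs had 15 windows on 10 chromosomes, all 15 near a LINE site, and a median of 66 copies. A group of 7 runs had 6 of 7 windows near a LINE site. The leading windows of these groups had 18.6, 17.9 and 20.3 RPKM in WT. A pair of alike runs on chromosome 9 lay outside genes, with leading windows 68937 and 62837 bp from the nearest gene start, that of Sorl1. This pair reached 72.1 RPKM at chr9:41911701-41911800, with 92, 80 and 105 WT reads in replicates 1, 2 and 3.

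**Figure D3:**
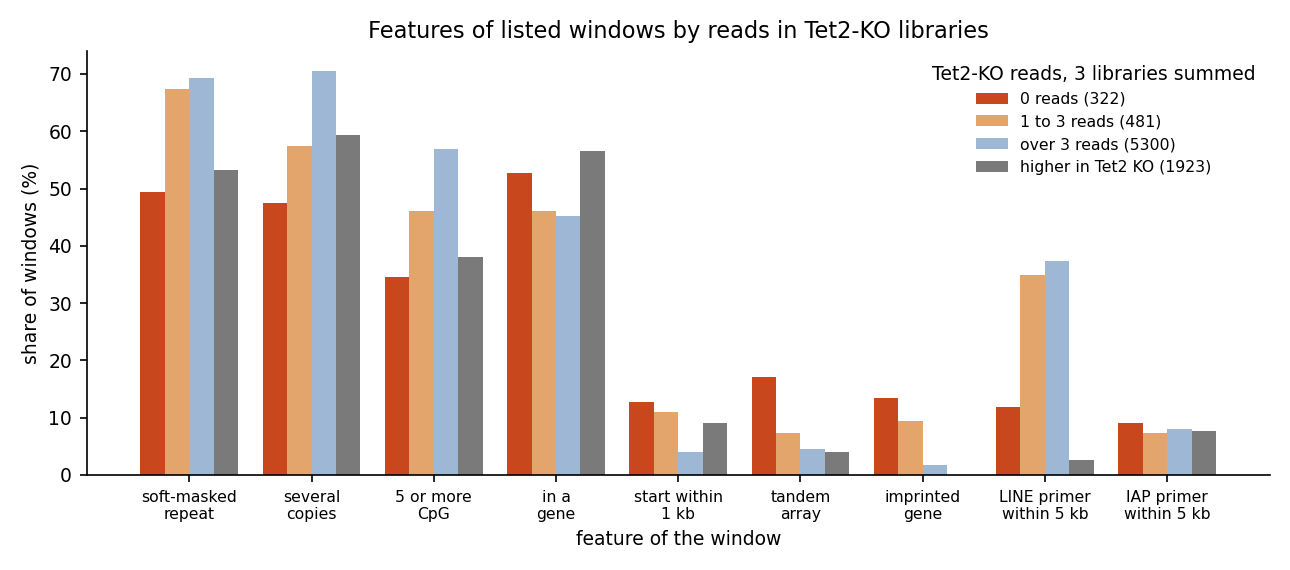
Share of windows in percent (y axis) with each feature (x axis) for listed windows grouped by their summed Tet2-KO reads and for windows higher in Tet2 KO. Windows with 0 reads had the highest shares of tandem arrays (17.1%) and imprinted genes (13.4%) of the 4 sets, and a lower share of LINE primer sites (11.8%) than the other lower windows.

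Few members lay in exons or near starts outside imprinted loci. Of the 322 members 33 overlapped an exon of a protein-coding gene and 41 lay within 1 kb of a start, which made 54 in all, and 41 of these 54 were at imprinted genes or Tet2. The shares were 10.2% and 12.7% of all members, 3.28% and 1.82% of the 274 members outside imprinted loci and Tet2, and 7.77% and 5.00% of all lower windows. The 13 others were at Zfp777, Zfp444, Tirap, Sidt2, Mut, Gm5678 and Dcpp3. Zfp444, a zinc finger gene, had 3 exonic members, the first with 23, 33 and 37 WT reads, or 22.2 ± 3.20 RPKM (SD, n = 2). A pair of members at -850 and -950 bp from the start of Tirap, an adaptor of Toll-like receptors, had 24.2 ± 2.38 and 19.3 ± 2.81 RPKM (SD, n = 2 each). At Sidt2, which encodes a lysosomal membrane protein, the leading window within 1 kb of the start had 20, 29 and 29 WT reads. At Mut, the gene of methylmalonyl-CoA mutase, the leading exonic window had 11, 20 and 19 WT reads.

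The members were unevenly spread along the genome. Chromosomes 9, 17, 6 and 14 held 55, 42, 41 and 33 members, or 53.1% of all members and 36.7% of all lower windows. Members were 15.1%, 6.45%, 4.92% and 8.42% of the lower windows there, compared with 5.28% over the 16 chromosomes, and also 13.1% on chromosome 11 and 10.7% on chromosome 19, whereas chromosome 4 held 0 members among 392 lower windows. In bins of 5 Mb, the 20 bins richest in members, which are 4.80% of 417 bins, held 224 members (69.6%), 16.2% of all lower windows and 4.84% of higher windows. From 30 to 45 Mb of chromosome 9 there were 44 members among 192 lower and 0 higher windows. From 45 to 55 Mb of chromosome 14 there were 30 members among 144 lower and 0 higher windows. Bins and stretches were picked for their members, so these shares are a description, and what sets the pattern was not tested. The strain background of the WT and Tet2-KO lines is not given in the sources used here, and its part in these blocks was not tested.

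**Figure D4:**
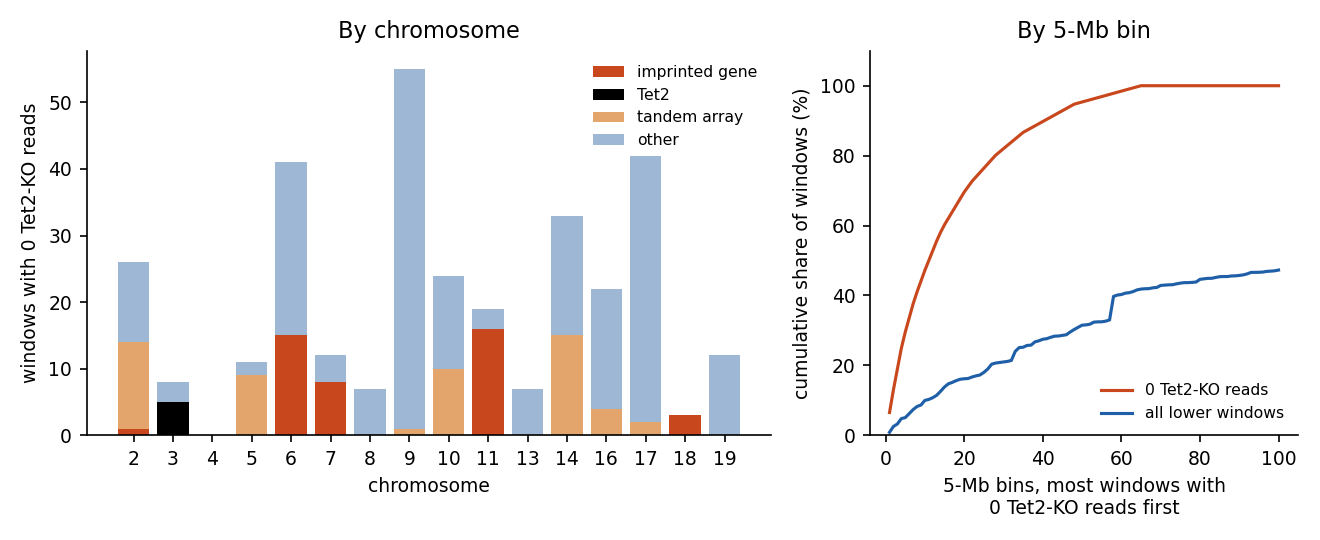
Left, number of windows with 0 Tet2-KO reads (y axis) on each of the 16 chromosomes (x axis), stacked by whether they lay at an imprinted gene, in Tet2, in a tandem array or elsewhere. Right, cumulative share in percent (y axis) of these windows and of all lower windows over 5-Mb bins ranked by windows with 0 Tet2-KO reads (x axis), which reaches 69.6% and 16.2% at 20 bins.

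The list for Pspc1 KO gave a readout that the rule did not use. It compares Pspc1 KO with its own WT, and 2 members were in it, both in an exon of the zinc finger gene Zfp777, with 9 and 12 CpG sites.
Zfp777, chr6:48024701-48024800: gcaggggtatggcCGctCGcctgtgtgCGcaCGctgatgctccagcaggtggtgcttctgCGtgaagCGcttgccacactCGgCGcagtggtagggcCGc

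Both Zfp777 windows were lower in Pspc1 KO. The first, chr6:48024701-48024800, had 87.9, 78.6 and 81.6 RPKM in WT IP replicates 1, 2 and 3 and 60.2, 49.7 and 54.9 RPKM in Pspc1-KO IP, or a WT mean of 82.4 ± 1.12 RPKM (SD, n = 2) and a Pspc1-KO mean of 54.9 RPKM. All Pspc1-KO libraries lay below all WT libraries. The log2 fold change was -0.59 ± 0.08 (SE), with an adjusted p of 6.01e-07 by the quasi-likelihood test of edgeR over the 307 listed windows. The second, chr6:48024801-48024900, had a WT mean of 78.9 ± 6.38 RPKM (SD, n = 2), a Pspc1-KO mean of 50.9 RPKM, a log2 fold change of -0.63 ± 0.09 (SE) and an adjusted p of 3.40e-07 by edgeR. Input libraries had 0 to 2 reads per window. The same windows had 55, 48 and 58 and 56, 47 and 54 reads in WT siNC and 0 in Tet2-KO siNC.

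The test used 3 against 3 libraries. None of the 3 pairs of Pspc1-KO libraries differed by clearly more than sampling noise (chi-square per degree of freedom 0.783, 1.01 and 1.01), so their means carry no SD. With replicates 1 and 2 summed in both groups, 2 against 2 samples, the adjusted p was 3.19e-06 and 5.48e-06 by edgeR. If the Pspc1-KO libraries are 1 sample, the difference has no replicate check in that group. The windows of that list had been selected on this same difference before deposit, so the p-values are not independent of the selection. The test called 100% of the 307 windows, and 81.1% as lower in Pspc1 KO, so the calls at Zfp777 were no more frequent than the background. They also depended on scaling. The median log2 fold change over the list was -0.56 with library totals, which were recovered from counts and RPKM, and -0.03 with TMM factors fitted on the list, and the log2 fold changes at Zfp777 became -0.07 and -0.11 (adjusted p of 0.540 and 0.307 by edgeR). The balance of calls turned as well, with 249 lower and 58 higher windows under library totals, 88 lower and 104 higher under TMM factors, and 69 lower and 97 higher with DESeq2. Of the 238 windows of that list on the 16 chromosomes, 121 were lower in Tet2 KO, which is 1.98% of the 6103 lower windows, compared with 2 of the 322 members (0.621%). Within 1 kb, 132 of the 238 windows had a lower window and 10 had a member.

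The lists for siNsun2 against siNC held no member. This was the case for 141 windows listed in Tet2-KO cells and 22 listed in WT cells on these chromosomes, of which 2 and 0 lay within 10 kb of a member. Of all 8026 listed windows, 31 (0.386%) and 15 (0.187%) were in these lists, and of the lower windows 5 and 0. The lists use the Tet2-KO siNC and WT siNC libraries again, so they are not independent of the rule. No test was therefore made, and a window outside a list was not shown to be unchanged, since only windows past the authors' threshold were deposited.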

How the data were processed

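MeDIP-seq was carried out on 24 samples of mES cells. Per the study's methods and the submitters' processing notes, the authors trimmed reads with Trimmomatic 0.39, aligned them to mm10 with Bowtie2 2.4.1, which keeps 1 position for a read with several, removed duplicates with Picard and compared 100-bp windows with MEDIPS and edgeR. Only windows with an adjusted p under 0.1 were deposited. The deposited counts were raw reads per window. The RPKM values were scaled to window length and library size by the authors and rounded. The relative methylation score, deposited as a fraction, was used only as a description. The CpG coupling factor, a deposited score, equalled the CpG sites of the reference window at 100% of windows. The deposited fold changes and p-values of the authors' own test and their means were not used. No column belonged to another sample (0).

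Library totals were recovered from count and RPKM. The members and lists were chosen with earlier results of these data known, and the TGCCGC search and the tandem definition were added after the sequences were seen. Reference features came from GRCm38 with GENCODE M21, copies from exact matches of the middle 32 bases to 66 reference sequences on both strands, primer sites from 20 primers of the study, and alignments among runs from blastn 2.17.0 (at least 80% identity over 80 bases). A gene of a list was matched with 5 kb on either side. A fold against a group at 0 was computed against 3 reads per library.

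The Pspc1 list was fitted with edgeR 4.0.16 in R 4.3.3 (glmQLFit, glmQLFTest, group only, recovered totals, Benjamini-Hochberg over the list at 0.05), after a test on simulated data, and with DESeq2 1.42.0 as an alternative. WT IP replicates 1 and 2 of that experiment differed by less than sampling noise (chi-square per degree of freedom 0.940, against 3.14 for 1 and 3) and were counted as 1 sample in the mean, and the Pspc1-KO mean carries no SD because its 3 pairs had 0.783, 1.01 and 1.01. Named genes were Tet2, the 10 runs with the most members, the 5 windows with the highest WT level with 1 copy and with more, up to 20 members in exons or near starts, members of the gene lists and members of another list. The sequences shown leave out untranslated regions, barred chromosomes and groups of fewer than 4 alike runs. Alternatives covered other limits on Tet2-KO reads, copies, distances, units counted, scalings, left-out replicates and a replicate block.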

Additional observations from a re-analysis of the deposited data

How the results depend on the processing

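Allowing at most 3 Tet2-KO reads gave 803 windows in place of 322 and 88 in place of 43 at imprinted genes (an alternative added after seeing the data, as were the others for imprinted genes), and keeping windows with 1 reference copy gave 169 windows and 103 runs in place of 161. Leaving out a Tet2-KO replicate gave 367 to 435 windows and 44 to 57 at imprinted genes. Counted as runs, the imprinted members were 11. The median WT level was 10.6 RPKM with 1 copy and 11.2 to 11.5 RPKM without a WT replicate. The share of repeats was 40.1% at a limit of 80% soft-masked bases, 59.0% by runs and 27.8% with 1 copy. The share with several copies was 37.9% for the middle 50 bases. The share in genes was 44.1% for protein-coding genes, 46.6% by runs and 62.1% with 1 copy. The share near a primer site was 6.52% within 1 kb and 37.3% by runs. Some of these shifts came with a changed definition and others with a left-out library, and their cause was not tested.

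For Pspc1 KO, the 2 called members became 0 with TMM factors and 0 with DESeq2 size factors, both centred on the listed windows (log2 fold changes of -0.05 and -0.11 with DESeq2). Leaving out a replicate kept 2 of 2 calls, as did summing replicates 1 and 2 in both groups, an alternative chosen after seeing the data. Each of these settings called all 307 windows of the list, so the kept calls show nothing particular to the members. Summing all Pspc1-KO libraries, also added then, left 1 sample in that group and bears on no call. With the replicate block 2 of 2 were called, at log2 fold changes of -0.59 and -0.66, as were all 307 windows. Same-numbered libraries did not deviate together (correlations of -0.06, -0.16 and -0.16), so the numbers were not taken to pair the samples. No paired analysis was possible for siNsun2 because no member was listed there, and those alternatives gave no value. Depth limits every fold between Tet2 KO and WT at these members to a lower bound.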
